A study of Homo sapiens and Mus musculus with 10 samples.

Results

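ZIC1, ZIC2, ZIC4 and ZIC5 are zinc finger transcription factor genes of the neural tube and neural crest. The 4 human genes were taken by name from GENCODE release 44, out of 19970 protein-coding genes, and the 4 mouse genes of the same name out of 21755. For each gene, all deposited peaks within 1 kb of any annotated start site (the promoter window) and within 100 kb were collected. The rule uses no measured value.

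The study measured open chromatin by short-read bulk ATAC-seq, in which the Tn5 transposase inserts adapters where DNA is accessible. It covers 10 libraries, with 2 replicates of each of 5 cell lines. GM12878 is a B lymphoblastoid line transformed by Epstein-Barr virus, and HEK293T came from embryonic kidney cells and expresses SV40 large T antigen. HFF1 cells are fibroblasts from foreskin, and K562 is an erythroleukaemia line. The mouse embryonic stem cells (mESC) were grown without feeders in a medium with LIF, N-2 and B-27. The labels name no treatment and no genetic change in any group. Each human group is a single line, and nothing in the labels says that its replicates came from separate cultures, so the spread between replicates may be technical.

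ZIC proteins bind DNA through zinc fingers related to those of the GLI factors, the transcription factors of Hedgehog signalling. ZIC1 and ZIC4 act together in cerebellar development, ZIC2 is required for division of the forebrain, and ZIC5 takes part in neural crest formation. The genes lie in divergent pairs, ZIC1 with ZIC4 and ZIC2 with ZIC5, so a peak near a start site can belong to either partner. A peak marks accessible DNA and does not measure transcription.

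In GRCh38, ZIC1 (ENSG00000152977.10) lies on the plus strand at chr3:147393422-147510293 with 5 annotated starts. ZIC4 (ENSG00000174963.18) lies on the minus strand at chr3:147386046-147406809 with 15 starts, and its start at 147393887 lies 8 bp from a ZIC1 start at 147393895. The main ZIC1 start, the one with a RefSeq promoter, is at 147409365. ZIC2 (ENSG00000043355.12) lies on the plus strand at chr13:99981784-99986765 with 5 starts, the first at 99981784. ZIC5 (ENSG00000139800.9) lies on the minus strand at chr13:99962964-99971767 with 1 start, 10017 bp from the first ZIC2 start.

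The bases just before the starts are shown because peaks fell there in some lines and not in others. They are read 5′ to 3′ along the gene, from GRCh38 for human and GRCm38 for mouse. Capitals mark GC boxes (GGGCGG) and CCAAT boxes (CCAAT) on either strand.
ZIC1, 200 bases before the main start (chr3:147409165-147409364, + strand): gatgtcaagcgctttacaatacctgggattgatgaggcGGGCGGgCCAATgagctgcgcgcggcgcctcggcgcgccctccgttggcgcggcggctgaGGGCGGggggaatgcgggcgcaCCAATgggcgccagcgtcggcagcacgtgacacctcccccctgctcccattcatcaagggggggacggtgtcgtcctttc
Zic1, 200 bases before the outermost mouse start (chr9:91365811-91366010, - strand): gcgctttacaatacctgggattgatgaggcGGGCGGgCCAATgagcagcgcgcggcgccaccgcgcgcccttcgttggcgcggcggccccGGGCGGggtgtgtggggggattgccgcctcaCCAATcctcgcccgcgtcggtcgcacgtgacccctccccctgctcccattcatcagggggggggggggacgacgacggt
ZIC2, 300 bases before the first start (chr13:99981484-99981783, + strand): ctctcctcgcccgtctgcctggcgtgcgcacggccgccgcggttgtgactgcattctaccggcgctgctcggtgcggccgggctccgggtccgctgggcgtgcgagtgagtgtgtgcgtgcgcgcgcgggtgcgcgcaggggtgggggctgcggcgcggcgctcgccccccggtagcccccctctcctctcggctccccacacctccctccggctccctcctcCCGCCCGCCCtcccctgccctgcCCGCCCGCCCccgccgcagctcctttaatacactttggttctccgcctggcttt
Zic2, 300 bases before the first mouse start (chr14:122475135-122475434, + strand): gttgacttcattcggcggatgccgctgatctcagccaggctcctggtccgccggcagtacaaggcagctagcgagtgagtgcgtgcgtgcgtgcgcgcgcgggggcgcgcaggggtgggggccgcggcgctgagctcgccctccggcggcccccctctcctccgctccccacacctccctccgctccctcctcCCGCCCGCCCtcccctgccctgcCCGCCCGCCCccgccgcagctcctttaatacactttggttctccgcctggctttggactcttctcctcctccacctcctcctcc
ZIC5, 200 bases before the start (chr13:99971768-99971967, - strand): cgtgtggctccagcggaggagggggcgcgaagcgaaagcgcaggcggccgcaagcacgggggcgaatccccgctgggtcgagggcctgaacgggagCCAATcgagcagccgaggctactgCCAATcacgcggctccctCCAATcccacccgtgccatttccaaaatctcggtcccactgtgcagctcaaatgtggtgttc
ZIC4, 151 bases around the highest HFF1 summit near its starts (chr3:147392271-147392421, - strand): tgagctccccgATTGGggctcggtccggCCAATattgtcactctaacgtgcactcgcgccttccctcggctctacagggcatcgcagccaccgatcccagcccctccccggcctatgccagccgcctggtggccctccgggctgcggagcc

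The human and mouse ZIC1 windows each held 2 GC boxes and 2 CCAAT boxes. Their longest shared run was 46 bases, from 192 to 147 bases before the human start, and it covers the outer GC box and CCAAT box. The ZIC2 windows each held 4 GC boxes in overlapping pairs and no CCAAT box. Here the shared run was 88 bases, which ended at the base before the human start and 31 bases before the mouse start. The ZIC5 window held 3 CCAAT boxes and no GC box. Of 22199 RefSeq promoters of 300 bases (GRCh38.p14), 56.3% held a GC box and 34.7% a CCAAT box. All 4 genes matched entries there, 9 in all. The ZIC2 promoter had a GC content of 75%, above 87.6% of the promoters, whereas the main ZIC1 promoter had 61.3% beside a median of 62.3%. A match to such letters is a description and not a mapped binding site.

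Library depth and size differed between lines. The lists held 52137 to 127359 peaks in the human libraries, fewest in HEK293T, and 138349 and 142194 in mESC. The background level recovered from the lists, which depends on depth, was 0.465 and 0.466 reads in HEK293T and 1.71 to 2.43 in the other human libraries. The labels were checked against promoter peaks of marker genes. All 6 B-cell markers had a peak in both GM12878 libraries, 5 of 6 erythroid markers in K562, 6 of 6 fibroblast markers in HFF1 and 6 of 6 stem cell markers in mESC. In HEK293T the kidney factors PAX2 and LHX1 had a promoter peak in both libraries, and no other human library had a peak there. KLF1, an erythroid factor, had no promoter peak in K562. Of 6 neuron markers, 4 had a promoter peak in GM12878, 4 in HEK293T, 6 in HFF1 and 3 in K562. Of 4 keratinocyte and melanocyte markers the numbers were 1, 1, 2 and 2, and all 4 early germ layer markers had a peak in mESC. The part of other cells in the ZIC values was not tested.

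The ZIC promoters were open in a different combination in each line. HEK293T had a promoter peak in both replicates at ZIC1, ZIC2 and ZIC5 (3 of 4), beside 67.8% of all human genes. HFF1 had them at ZIC1, ZIC2 and ZIC4 (3 of 4), beside 76.2%. K562 had them at ZIC2 and ZIC5 (2 of 4), beside 70.4%. GM12878 had 0 of 4 in both replicates, beside 71.9%. In mESC, all 4 mouse genes had a promoter peak in both libraries, beside 73.1% of mouse genes. Of all human genes, 59.7% had a promoter peak in all 8 libraries and 14.7% in none, and no ZIC gene was among either. No ZIC promoter was open in both libraries of a single line with no peak elsewhere. That was the case for 1.4% of genes in GM12878, 0.336% in HEK293T, 2.05% in HFF1 and 1.12% in K562. These counts are a description of 4 chosen genes. The GM12878 count rested on replicate 2, since without it ZIC2 was called and the count was 1. The K562 count rested on replicate 2 as well, and without it all 4 genes were called. In HFF1 the ZIC2 call joined peaks that did not overlap between replicates. Replicate 1 had chr13:99981225-99981619 and chr13:99981845-99982067, and replicate 2 had chr13:99982175-99982508. Their −log10 p was above that of only 16.3%, 25.3% and 19.7% of the peaks in their lists.

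ZIC1, a regulator of neural progenitor growth and of neural crest induction, was most open in HFF1. Its promoter windows, 8477 bp in all, were covered by peaks over 2089 and 2001 bp in the HFF1 replicates. The HEK293T replicates had 602 and 583 bp, the K562 replicates 168 and 0 bp, and both GM12878 libraries 0 bp. HFF1 thus stood above HEK293T and HEK293T above the blood lines with no overlap, while K562 and GM12878 shared the value 0. The means were 2045 ± 62.2 bp in HFF1 and 592.5 ± 13.4 bp in HEK293T (SD, n = 2). Between-line differences made up 0.997 of the variance (eta squared), with p = 0.0286 by an exact one-sided permutation test over the 105 ways of splitting 8 libraries into 4 pairs. The Benjamini-Hochberg adjusted p of this permutation test over 17035 genes was 0.0567. That value missed the threshold of 0.05, which 23.3% of the genes passed.

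ZIC4, which is expressed with ZIC1 in the developing cerebellum, was open in HFF1. Its windows of 12511 bp were covered over 1369 and 1257 bp in HFF1 and over 168 and 0 bp in K562. All 4 GM12878 and HEK293T libraries had 0 bp. The HFF1 peaks and the single K562 peak also lay in windows of the early ZIC1 starts, so they count for both genes. Eta squared was 0.992, with an exact permutation p of 0.143 and an adjusted p of 0.162. A gene open in 1 line and at 0 in the others cannot reach a lower p than 0.143 in this permutation design.

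ZIC2, a factor of forebrain development that also acts in early embryonic cells, had its widest coverage in HEK293T and K562. Of its 5207 bp, peaks covered 1090 and 1026 bp in HEK293T and 871 and 1216 bp in K562. They covered 618 and 334 bp in HFF1, and 325 and 0 bp in GM12878. HEK293T and K562 overlapped each other and lay above every HFF1 and GM12878 library, and the lowest HFF1 value lay above the highest GM12878 value. Eta squared was 0.883, with an exact permutation p of 0.0476 and an adjusted p of 0.0808.

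ZIC5, the partner of ZIC2 and a factor in neural crest formation, was open in HEK293T and K562. Its window of 2001 bp was covered over 1072 and 1019 bp in HEK293T and over 739 and 755 bp in K562. All 4 GM12878 and HFF1 libraries had 0 bp. The values of HEK293T and K562 did not overlap. Eta squared was 0.999, with an exact permutation p of 0.0286 and an adjusted p of 0.0567. This p is the lowest that a gene open in 2 lines and at 0 in the others can reach. For the 4 genes together, 0 passed the adjusted threshold and 3 had an unadjusted p under 0.05 in the exact permutation test.

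**Figure D1:**
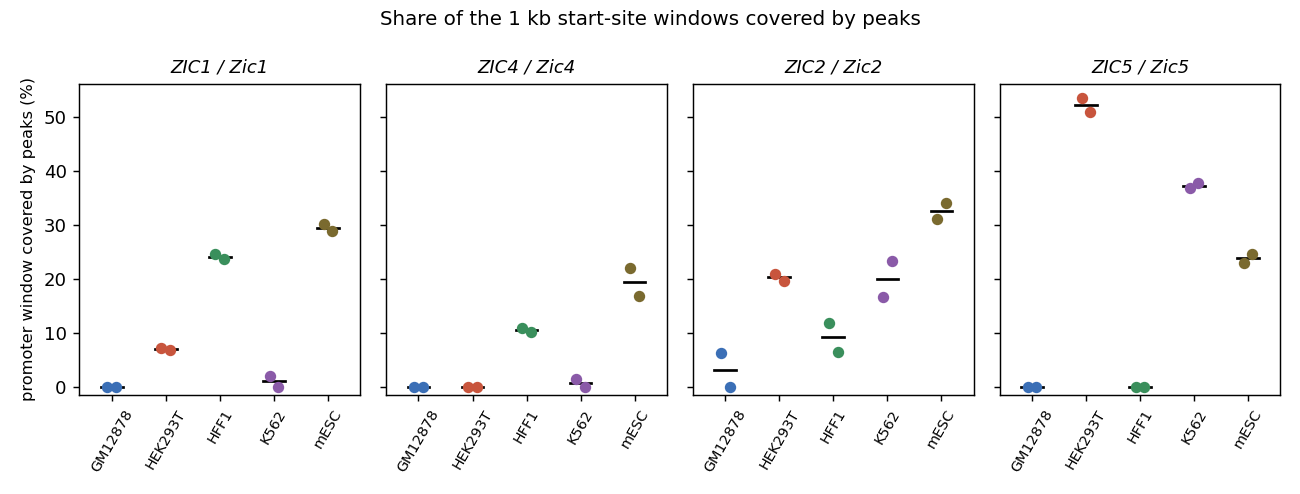
Share of each gene's promoter windows covered by peaks (%), by line, with a point for each library and a bar for the mean of 2. ZIC1 and ZIC4 stood highest among human lines in HFF1, ZIC5 was at 0 in GM12878 and HFF1, and all 4 mouse genes were covered in both mESC libraries.

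The ranking of lines was also read after the recovered pileups were scaled so that the background levels matched that of the lowest library. This alternative was chosen after seeing the data and matches that level only, since the scaled lists still held 40588 to 72448 peaks. HEK293T kept 100% and 99.9% of its peaks and the other libraries 51.4% to 70.3%. Scaling only removed peaks. Those that stayed kept the widths called at full depth, so the covered base pairs are not matched for depth. ZIC1 kept 1213 and 1088 bp in HFF1 beside 602 and 583 bp in HEK293T. ZIC4 kept 819 and 674 bp in HFF1 and 0 bp in the other lines. ZIC2 had 0 bp in all HFF1 and GM12878 libraries, while HEK293T had 1090 and 1026 bp and K562 had 871 and 1216 bp. ZIC5 had the same coverage as without scaling, because its peaks all stayed and widths were not rescaled. HFF1 then had 2 ZIC genes with a promoter peak, HEK293T 3, K562 2 and GM12878 0. No share of all genes after scaling stands beside these counts, so they describe the ZIC genes only.

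At ZIC2 and ZIC5, HEK293T and K562 had their highest summits at different places, although their peaks partly overlapped. In HEK293T, the highest point of the ZIC5 peak lay 80 and 133 bp before the start. In K562 it lay 1230 bp inside the gene in both replicates, in a ZIC5 exon. The K562 peaks were 1595 and 1669 bp wide, and their edges ended 262 and 246 bp short of the start. Those of HEK293T were 1072 and 1019 bp wide and ran across it. The K562 peaks were wider than 99.7% and 99.8% of their lists, and the HEK293T peaks than 99% and 98.7%. RefSeq also lists a ZIC5 promoter inside the gene, at chr13:99969123-99969422. The K562 peaks lay upstream of it without overlap, and whether they belong to it was not tested.

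At ZIC2 the HEK293T summits lay 265 and 274 bp before the first start, within the 300 bases shown above. In the other lines the highest summit lay farther out, at 1163 and 1156 bp before the start in K562, 1183 and 1182 bp in HFF1, and 1155 and 1162 bp in GM12878. All 6 of these libraries thus peaked between 1155 and 1183 bp, apart from the HEK293T positions. The wide peaks of HEK293T and K562 nevertheless overlapped. They were chr13:99980535-99981873 in HEK293T replicate 1 and chr13:99980345-99981654 in K562 replicate 1. Each of these peaks covered the highest summit of the other. A weaker second peak with its summit 288 bp before the start was listed in GM12878 replicate 1 and HFF1 replicate 1. The outer peaks of GM12878 and HFF1 ended 1043 to 1066 bp before the start, just outside the 1 kb window. With windows of 2 kb, GM12878 therefore had 1 ZIC gene called. With a summit required inside the 1 kb window, K562 had 0.

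The outer ZIC2 site is shown for its GC boxes, in capitals with a CCAAT box, on the plus strand of GRCh38.
ZIC2 outer summit, 201 bases (chr13:99980521-99980721, + strand): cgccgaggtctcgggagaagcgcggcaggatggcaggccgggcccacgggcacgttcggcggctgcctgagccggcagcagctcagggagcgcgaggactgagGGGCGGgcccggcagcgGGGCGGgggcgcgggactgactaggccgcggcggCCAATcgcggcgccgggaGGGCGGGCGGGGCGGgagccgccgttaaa
These 201 bases held 5 GC boxes and had a GC content of 79.1%. Of all 243200 merged human regions, 11.4% held a GC box in the 201 bases around their summit. The site lies within 1 kb of the start of ENSG00000288060, a lncRNA on the opposite strand between ZIC5 and ZIC2. A peak there can therefore belong to either gene.

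**Figure D2:**
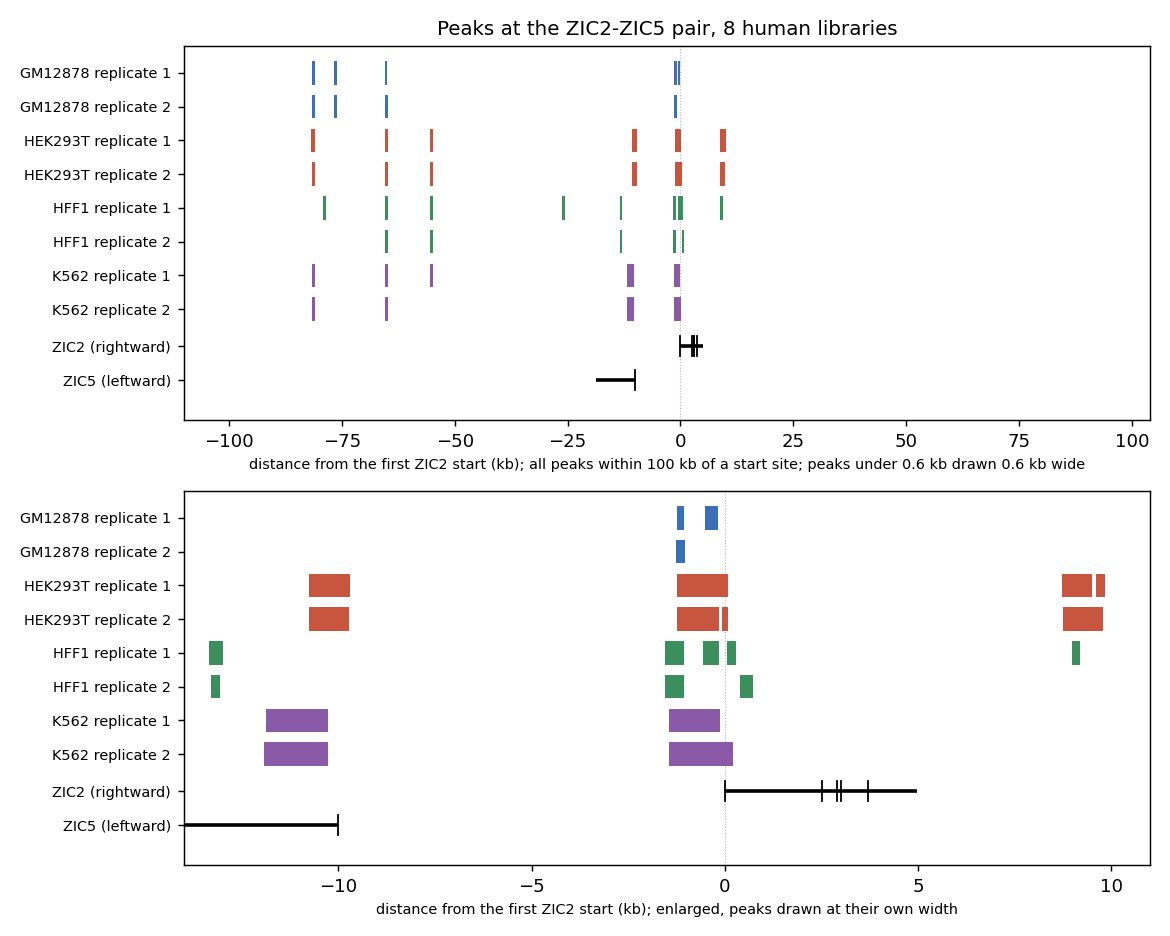
Deposited peaks of the 8 human libraries around ZIC2 and ZIC5, against distance from the first ZIC2 start (kb); lines below mark the genes and ticks their start sites. In the enlarged panel the HEK293T peaks cross the ZIC5 start, and those of K562 lie to its left, inside the gene.

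At the main ZIC1 start, HEK293T and HFF1 had their summits at nearly the same place. The HEK293T summits lay 102 and 120 bp before this start and the HFF1 summits 98 and 89 bp, all inside the ZIC1 bases shown above. In mESC the summits lay 126 and 122 bp before the outermost Zic1 start. The authors' fold over local background was 5.42 and 8.58 in HEK293T and 5.77 and 4.43 in HFF1. The recovered pileups behind these folds were 11 and 18 reads in HEK293T and 68 and 42 in HFF1. A second peak inside an exon of ZIC1, chr3:147409609-147409957, was also called in both lines.

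HFF1 alone had further called regions at or near the starts. They were chr3:147391972-147392790 over a cluster of ZIC4 starts (folds 6.73 and 7.1) and chr3:147393230-147393812 over the first ZIC1 start (folds 4.13 and 4.12). K562 replicate 1 had a peak in the latter with a fold of 3.62. Within ZIC1 they were chr3:147410269-147411075, with folds of 6.7 and 7.52, and chr3:147421180-147421795 over a later start, with folds of 7.07 and 6.8. In the former, the peaks with these folds lay 1137 and 1282 bp from the main ZIC1 start, outside the 1 kb window. Only a weaker peak of replicate 2, with a fold of 4.18 and 904 bp from that start, reached the window. No HEK293T or GM12878 library had a peak in these 4 regions.

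The number of peaks within 100 kb was also highest in HFF1 for the ZIC1-ZIC4 pair. ZIC1 had 14 and 14 peaks in HFF1, 6 and 7 in HEK293T, 6 and 5 in GM12878, and 4 and 3 in K562. HFF1 lay above all other libraries, and HEK293T and GM12878 shared the value 6. ZIC4 had 12 and 13 peaks in HFF1, 6 and 7 in HEK293T, 3 and 3 in GM12878, and 4 and 3 in K562. For ZIC1, eta squared was 0.988 with an exact permutation p of 0.019, and for ZIC4 it was 0.987 with an exact permutation p of 0.0286. Both had an adjusted p of 0.046 in this permutation test, as did many genes, since 62.1% of 19852 passed. The ZIC1 call was lost on leaving out any of the 8 libraries, with adjusted p of 0.0515 to 0.0756 in the permutation test. The ZIC4 call was lost on leaving out each library in turn, except K562 replicate 2. In those fits 0% to 22.6% of all genes passed.

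ZIC2 and ZIC5 had equal counts, since their windows largely coincide. There were 8 and 7 peaks in HEK293T, 9 and 5 in HFF1, 5 and 4 in GM12878 and 5 and 4 in K562. The HFF1 replicates spanned the HEK293T values, and no difference between lines passed the exact permutation test (eta squared 0.618, p = 0.314, adjusted p = 0.323). The median human gene had 14 peaks in each GM12878 library, 16 and 15 in HFF1, 12 and 11 in K562, and 7 and 7 in HEK293T. The ZIC counts lay below these medians in GM12878, HFF1 and K562, and within 1 peak of them in HEK293T. With background levels matched as above, HEK293T had 8 and 7 peaks at ZIC2 and ZIC5, and every other library 3 or 4. At ZIC1, the scaled counts were 8 and 9 in HFF1, 6 and 7 in HEK293T, 3 and 1 in GM12878 and 2 and 1 in K562.

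**Figure D3:**
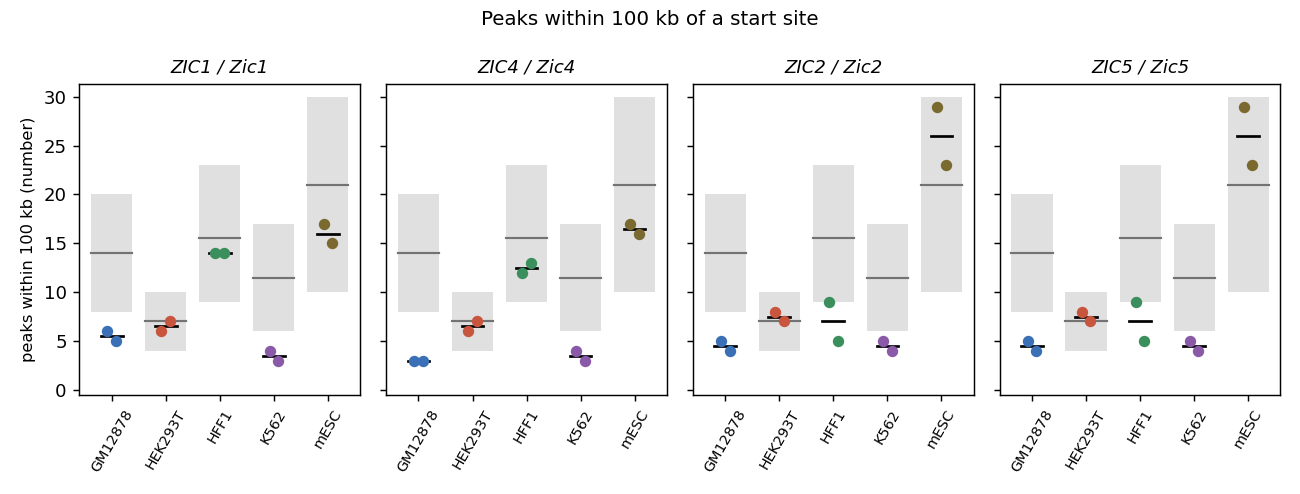
Number of peaks within 100 kb of each gene by line, with a point for each library and a black bar for the mean of 2; the grey line and box give the median and quartiles of all protein-coding genes. ZIC1 had 14 peaks in both HFF1 libraries and 3 to 7 in the other human libraries.

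Merging the human peaks across libraries gave 22 regions within 100 kb of the ZIC1-ZIC4 starts, numbered here along the chromosome. HFF1 had 13 of them in both replicates, HEK293T 6, GM12878 5 and K562 3. With background levels matched these numbers were 8, 6, 1 and 1. Of the 13 in HFF1, 9 (69.2%) had no peak in another human line, beside 50.5% of all regions called in HFF1. The same held for 3 of 5 in GM12878 (60%, beside 40.6%), 2 of 6 in HEK293T (33.3%, beside 10.8%) and 1 of 3 in K562 (33.3%, beside 25.4%). No region was open in all 8 libraries, beside 8.53% of all merged regions.

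Beyond the promoters, the region with the highest mean −log10 p was another in HFF1 and K562 than in GM12878 and HEK293T, which shared region 3. In HFF1 the highest was region 1, chr3:147298438-147299168, in the lncRNA gene ENSG00000243620 and 90204 bp from the nearest ZIC4 start. Its fold was 12.9 and 14.2, and its −log10 p was above that of 96.4% and 99% of the HFF1 peaks. HFF1 also opened region 16, chr3:147431741-147432240, inside ZIC1, with folds of 14.2 and 12.4. Neither region had a peak in another line. Region 14, chr3:147418925-147419622, inside ZIC1, was shared by HFF1 (folds 7.41 and 7.06) and K562 (folds 9 and 9.12). It was the highest region of K562 in this neighbourhood.

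Region 3, chr3:147361736-147362168, was open in all lines but HFF1. It was called in GM12878 (folds 13.5 and 12.8), HEK293T (14.7 and 12) and K562 (8.99 and 7.41), and had no peak in HFF1. HEK293T alone opened region 2, chr3:147317149-147317429, with folds of 12.8 and 13.3. Its −log10 p in HEK293T was 24.5 and 25.3, beside 31.7 and 24.2 in region 3, so replicate 2 alone had the reverse order. GM12878 alone opened region 21, chr3:147538050-147538326, beyond the end of ZIC1, with folds of 10.7 and 6.95. The summits of regions 1 and 3 are shown as the strongest region of HFF1 and the region that HFF1 lacked. Capitals mark the AP-1 letters TGANTCA in the first and a CTCF core in the second (CC, any 3 bases, AG, any 2 bases, GGC), searched on both strands.
Region 1, 201 bases around the summit (chr3:147298632-147298832, + strand): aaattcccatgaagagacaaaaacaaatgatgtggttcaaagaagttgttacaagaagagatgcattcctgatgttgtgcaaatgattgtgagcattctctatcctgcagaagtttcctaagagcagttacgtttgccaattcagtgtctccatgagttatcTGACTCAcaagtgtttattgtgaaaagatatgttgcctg
Region 3, 201 bases around the summit (chr3:147361899-147362099, + strand): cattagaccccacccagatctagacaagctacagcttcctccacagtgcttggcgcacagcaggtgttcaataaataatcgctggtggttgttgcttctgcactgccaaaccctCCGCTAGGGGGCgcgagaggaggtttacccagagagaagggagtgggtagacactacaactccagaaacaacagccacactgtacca
Of all merged regions, 19% held the AP-1 letters and 9.29% the CTCF core letters. Region 1 also held the GATA letters AGATAA and a CCAAT box, which 11.2% and 23.3% of regions held. Region 3 also held the ZIC-like letters CAGCAGG, which 9.52% of regions held. These are descriptions of letters, and binding was not measured.

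**Figure D4:**
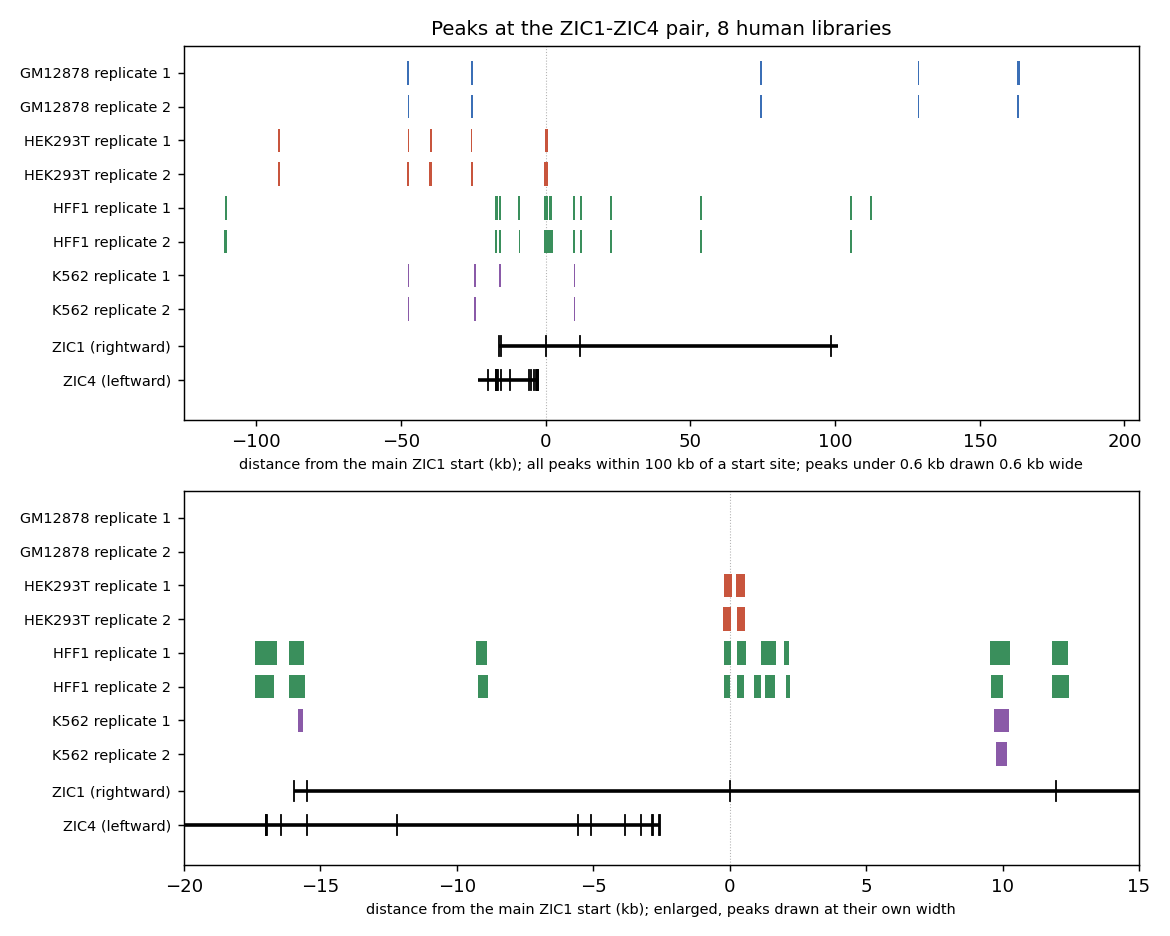
Deposited peaks of the 8 human libraries around ZIC1 and ZIC4, against distance from the main ZIC1 start (kb); lines below mark the genes and ticks their start sites. In the enlarged panel HFF1 peaks were spread over both genes, HEK293T peaks lay at the main ZIC1 start, and GM12878 had none.

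Around ZIC2-ZIC5, peaks merged into 11 regions. HEK293T had 6 of them in both replicates and GM12878, HFF1 and K562 4 each, though HFF1 had 7 without replicate 2. With background levels matched, HEK293T had 6, GM12878 3, K562 3 and HFF1 2. The region that includes the ZIC2 start, chr13:99980233-99982067, and region 4, chr13:99916355-99916820, each had a peak in all 8 libraries. In GM12878 replicate 2 and HFF1 replicate 2, the only peak in the former lay at the outer ZIC2 site, outside the 1 kb window. Region 4 lies in an intron of the lncRNA gene ENSG00000286757, 54947 bp from the ZIC5 start.

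Region 4 had the highest mean −log10 p of the distal regions in each of the 4 lines. In HEK293T this was a near tie, with 16.2 and 18.2 in region 4 and 17.6 and 16.5 in region 11, and replicate 1 alone had the reverse order. Its folds were 16.1 and 16.5 in GM12878, 9.65 and 10.2 in HEK293T, 11.3 and 9.54 in HFF1, and 8.73 and 7.75 in K562. The summits of the 8 libraries lay between 99916676 and 99916684. The 201 bases are printed as the distal site that every human library shared, and hold none of the 8 motifs searched.
Region 4, 201 bases around the summit (chr13:99916576-99916776, + strand): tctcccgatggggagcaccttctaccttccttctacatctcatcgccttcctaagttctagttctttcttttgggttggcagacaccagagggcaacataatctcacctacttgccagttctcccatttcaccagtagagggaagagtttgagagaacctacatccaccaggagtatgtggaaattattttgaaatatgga
After region 4, the highest in GM12878 and K562 was region 1 of this pair, chr13:99900119-99900776. It was called in GM12878 (folds 9.45 and 8.95), HEK293T (6.93 and 7.87) and K562 (7.79 and 6.09), and had no peak in HFF1. In HFF1 region 5 came next, chr13:99926459-99926739, with folds of 6.23 and 6.93. It was also called in HEK293T (6.79 and 7.01), and K562 replicate 1 had a peak there (4.6). Region 11, chr13:99990514-99991607, beyond the end of ZIC2, was called in HEK293T with folds of 6.67 and 6.18. HFF1 replicate 1 had a weaker peak there with a fold of 3.64. Region 7, chr13:99968435-99968793, inside ZIC5, was called in HFF1 alone, with folds of 6.04 and 4.86, although HFF1 had no peak in the ZIC5 promoter window. This region lies downstream of the RefSeq ZIC5 promoter inside the gene, which is not part of that window.

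In mESC both pairs lay among many peaks. Peaks covered 1220 and 1167 bp of the Zic1 windows, 2517 and 1917 bp of those of Zic4, 1249 and 1364 bp of those of Zic2 and 920 and 984 bp of those of Zic5. Zic2 and Zic5 each had 29 and 23 peaks within 100 kb, Zic1 had 17 and 15 and Zic4 17 and 16, beside a median of 21 in each library. Human and mouse counts were not tested against each other, since depth and annotation differ. When each mESC list was limited to its 50000 strongest peaks, 2 of the 4 genes kept a promoter peak in both libraries. No share of all mouse genes under this cut stands beside that count, so it describes the Zic genes only.

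The Zic2-Zic5 pair held 32 merged mouse regions, 22 of them in both libraries, and the Zic1-Zic4 pair 18, with 15 in both. The region with the highest mean −log10 p, chr14:122533896-122534761, covers the start of Pcca, a gene of propionate breakdown. Next came chr14:122415986-122416989, 43032 bp from the nearest Zic5 start, with folds of 8.57 and 9. Its −log10 p was above that of 96.2% and 98.4% of the mESC peaks. Around Zic1-Zic4 the highest beyond the promoters was chr9:91384140-91384548 inside Zic4, with folds of 6.54 and 6.89. It was followed by chr9:91355403-91356062, with folds of 6.78 and 7.48. The Zic2 summits lay 1168 bp before the first start in replicate 1 and 389 bp before it in replicate 2, within peaks of 1488 and 1567 bp, so the 2 replicates placed them apart. The Zic5 summits lay 76 and 111 bp inside the gene.

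**Figure D5:**
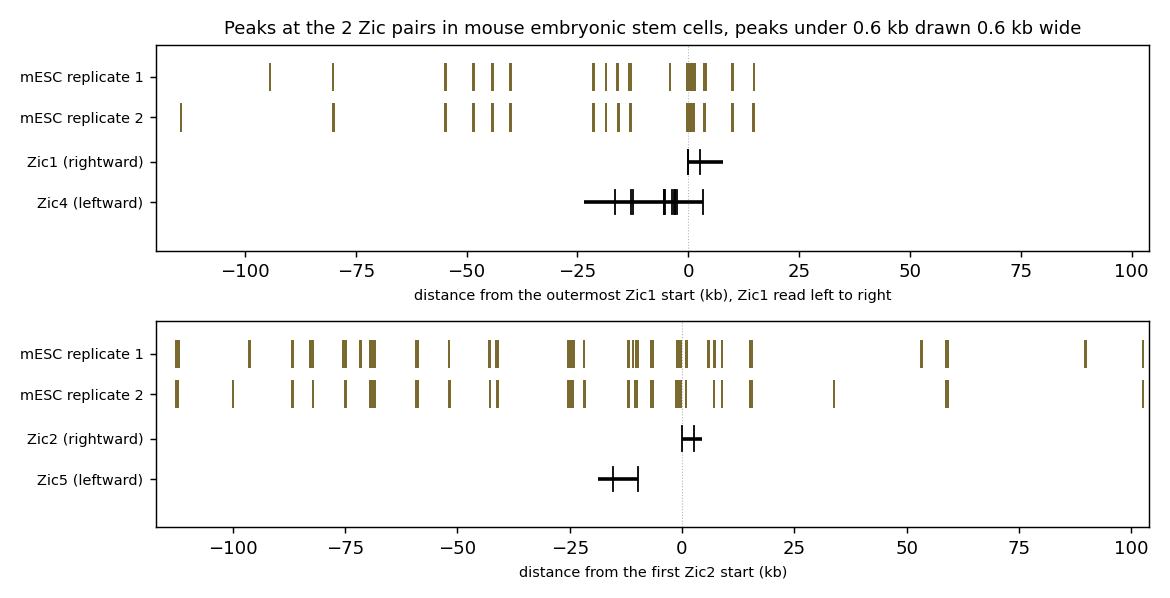
Deposited peaks of the 2 mESC libraries around Zic1-Zic4 (top, drawn so that Zic1 reads left to right) and Zic2-Zic5 (bottom), against distance from a start site (kb). The Zic2-Zic5 neighbourhood held 30 and 24 peaks and the Zic1-Zic4 neighbourhood 17 and 16.

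Human regions were aligned to the mouse sequence around the same pair to ask which had a counterpart that was open in mESC. Of 33 regions, 17 aligned, and 8 of those had a peak in both mESC libraries. Among the 9 promoter regions, 7 aligned and 6 had a mESC peak. Among the 24 distal regions, 10 aligned and 2 had such a peak. A region counts as a promoter region if any of its peaks reaches a 1 kb window. The same shares over all human regions were not computed, so these counts describe the 33 regions only. The region at the main ZIC1 start aligned over 339 bases at 87.6% identity, and the HFF1 region in ZIC1 at chr3:147410269-147411075 over 807 bases at 90%. The ZIC5 start region aligned over 2196 bases at 84.7% and the ZIC2 start region over 1488 bases at 76.4%, and all 4 were open in mESC. Region 14 of the ZIC1-ZIC4 pair, shared by HFF1 and K562, was a distal region with an open counterpart, at 84.1% identity over 201 bases. Region 1, the strongest in HFF1, aligned over 506 bases at 77.5% and had no mESC peak, while region 3 of that pair and region 4 of ZIC2-ZIC5 did not align.

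The genes with the most similar promoter coverage were taken by the root-mean-square difference of covered share over the 8 human libraries. For ZIC1 they were RBM24, EGFR and EMILIN3, with differences of 0.818, 1.14 and 1.35 percentage points, beside a median of 12.6 over all genes. For ZIC4 they were KRT16, ROBO4 and GALNT15 with differences of 0.484, 0.487 and 0.487 percentage points, and a median of 9.39. For ZIC2 they were ART5, GABRQ and STON2 (3.83, 3.96 and 4.67, median 13.9). For ZIC5 they were DSC2, TRIM58 and HTR1F (8.05, 8.49 and 9.76, median 29.6). In percentage points its nearest gene was farther off than those of the others, but its median over all genes was also the highest.

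Other neural tube and neural crest factors were counted for comparison. Of 30 such genes, 25 (83.3%) had a promoter peak in both HEK293T libraries, 17 (56.7%) in HFF1, 15 (50%) in K562 and 12 (40%) in GM12878. Beside the 67.8%, 76.2%, 70.4% and 71.9% of all genes given above, the share lay above the background in HEK293T and below it in the other lines. SOX3, PAX7, NEUROD1 and OLIG2, which act in neural or muscle progenitors, had a promoter peak in HEK293T alone, beside 0.336% of all genes. LMX1A, a factor of dorsal and dopaminergic neurons, had one in HFF1 alone, beside 2.05% of all genes. SOX1, LHX5 and DBX1 had none in any human library.

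Of 16 genes of the Hedgehog-GLI pathway, whose GLI factors share the ZIC type of zinc finger, 14 (87.5%) had a promoter peak in HEK293T, 14 (87.5%) in HFF1, 12 (75%) in GM12878 and 12 (75%) in K562. The shares of all genes were 67.8%, 76.2%, 71.9% and 70.4%, so those of GM12878 and K562 lay near the background. In all 8 libraries 11 of the 16 did, beside 59.7% of all genes, including the transcription factors GLI1, GLI2 and GLI3 and the receptor PTCH1. SHH, the ligand of the neural tube, had a promoter peak in both HEK293T libraries and in 1 HFF1 library. DHH, a ligand of testis and nerve, had a promoter peak in HFF1 alone.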

How the data were processed

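Per the labels' protocols, nuclei were tagmented with Tn5 and libraries were sequenced on an Illumina instrument. The submitters' processing notes name cutadapt 3.2, Bowtie2 2.4.2, Picard and MACS2 2.2.7.1 and the builds hg38 and mm10, with no parameters. The authors deposited 1 peak list per library, so replicates were not pooled. Besides its coordinates and summit, each deposited peak carries a fold, which is a linear ratio over local background, a −log10 p, a −log10 q and a score. These fold and −log10 values come from the authors and serve here to describe, rank and filter peaks inside single lists. The deposited score was used only to check the layout. Coordinates count from 1.

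Autosomal and X peaks entered the analysis. Base pairs covered in merged windows of 1 kb on either side of every annotated start, and peaks overlapping windows of 100 kb, were computed for all protein-coding genes (GENCODE release 44, and a GENCODE release for GRCm38 in mouse). Lines were compared by eta squared with an exact one-sided permutation test over 105 splits, whose smallest p is 0.00952, and Benjamini-Hochberg adjustment over all genes with a peak. A region is a merge of overlapping peaks across libraries of a species, and it is called in a line when both replicates have a peak in it. Depth was recovered by solving fold and −log10 p for a whole-number pileup and a background, which succeeded for 100% of peaks within 0.01. PCR copies were not told apart by molecular identifiers, so pileups are not independent molecules. Human regions were aligned to the GRCm38 sequence within 200 kb of the starts of the same mouse pair with blastn 2.17.0 at an E-value of 1e-10. Computation used Python 3.11.15, numpy 2.4.6 and scipy 1.17.1, and the permutation test was tested on simulated data.

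Every ZIC gene is described. Beyond the promoters, the 2 called regions with the highest mean −log10 p per pair and line were named, and others by what they show. The genes, lists and tests were chosen with earlier results of these data known. A kidney marker is not reported here. The printed sequences were read from GRCh38 and GRCm38.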

Additional observations from a re-analysis of the deposited data

How the results depend on the processing

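Promoter coverage passed the threshold in 1 alternative, for ZIC1 with 2 kb windows (eta squared 0.992, adjusted permutation p = 0.0388, beside 24.6% of all genes). The promoter test could not be read with the outermost start only, with the replicate block, or without either GM12878 library, either K562 library or HFF1 replicate 1, since 0% of all genes passed there. The peak-number calls of ZIC1 and ZIC4 were lost with windows of 50 kb (0.992 and 0.982), with the 50000 strongest peaks per library (0.974 and 0.984) and with background levels matched, chosen after seeing the data (0.953 and 0.974). They were also lost with the replicate number as a block (0.989 and 0.988, adjusted permutation p = 0.117 for both). In those fits 0% of all genes passed, so the peak-number test could not be read there either. Leaving out a library gave 0.981 to 0.992 for ZIC1 and 0.985 to 0.991 for ZIC4. ZIC2 and ZIC5 passed when covered base pairs within 100 kb replaced peak number (0.94 and 0.94, adjusted permutation p = 0.0342), as did 86.5% of all genes. Deviations of same-numbered replicates in promoter coverage correlated at −0.0181 to 0.0115 between lines, so this measure showed no shared shift by replicate number. Whether same-numbered libraries were prepared together is not stated and was not tested. The number of genes with a promoter peak was 1 in GM12878 with 2 kb windows, 0 in K562 with a summit required in the window and 2 in mESC with the 50000 strongest peaks. Leaving out a replicate gave 0 to 1 in GM12878 and 2 to 4 in K562. No share of all genes under these settings stands beside the counts. Peaks were called separately at different depths, so a missing peak says only that none was listed.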
